A study of Mus musculus with 6 samples.

Results

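Muscle and heart miRNAs were followed in small RNA libraries made from mouse serum. The 6 miRNAs were picked by their miRBase identifier and not by a rule on their counts: miR-1a-3p (MIMAT0000123), miR-133a-3p (MIMAT0000145), miR-133b-3p (MIMAT0000769), miR-206-3p (MIMAT0000239), miR-208a-3p (MIMAT0000520) and miR-499-5p (MIMAT0003482), out of 788 miRNAs with reads in any library. Earlier results of these data were known when the list was made. The paper describes the donors as healthy male and female 129/SVj mice, aged 2 to 9 months. The sex and exact age of the mouse behind each library are not given. No genetic change is reported for them, and no treatment other than sedation with tribromoethanol. The blood was drawn with a needle from the heart, left to clot and spun at low and then at high speed to remove cells and debris. RNA was then turned into libraries with 3 commercial kits, NEBNext Multiplex (New England Biolabs), TruSeq v2 (Illumina) and TailorMix v2 (Seqmatic), with 2 libraries for each kit, and the comparison asks how the choice of kit changes what is counted. Sera of individual mice were used, but the serum numbers 1 and 2 of the labels do not say which mouse was meant or whether it recurs in another kit, so the p-values below measure the spread between these libraries, which may be technical.

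A miRNA is a short RNA that guides silencing proteins to partly complementary messenger RNAs, and the bases near its 5′ end, the seed, do most of the target recognition. miR-1a, miR-133a, miR-133b and miR-206 are the classic muscle miRNAs: miR-1a and miR-133a are made in skeletal and heart muscle, whereas miR-206 and miR-133b belong to skeletal muscle. miR-208a and miR-499 are carried in introns of myosin heavy chain genes, miR-208a being made in the heart and miR-499 in heart and slow skeletal muscle. Cell-free forms of these miRNAs are widely measured in blood as signs of muscle or heart injury. The share of such a miRNA in serum does not tell apart a larger release from muscle and a smaller amount of other miRNAs.

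Mature sequences were found in the RefSeq table for 4 of the 6 miRNAs (build GRCm38.p6) and are given from 5′ to 3′ with the seed, bases 2 to 8, in capitals. They are shown to compare the seeds of the members found there.
miR-206-3p: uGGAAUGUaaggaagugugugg
miR-133b-3p: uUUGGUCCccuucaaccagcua
miR-208a-3p: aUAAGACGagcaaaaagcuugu
miR-499-5p: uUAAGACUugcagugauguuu
miR-208a-3p and miR-499-5p shared the 6 bases that start at base 2 and were the same at 12 of 21 positions compared, but none of the 4 full seeds was the same as another. The full seed of miR-208a-3p was also found in its paralog miR-208b-3p. That of miR-206-3p recurred in miR-6349 and miR-6382. As background, miR-206 is known to share its seed with miR-1a, and miR-133b with miR-133a. The GC content was 50.0% in miR-133b-3p, 45.5% in miR-206-3p, 36.4% in miR-208a-3p and 33.3% in miR-499-5p, against a median of 52.2% over the mature entries of the table. The mature forms of miR-133a-3p and miR-133b-3p are near-identical, so the split of reads between them is uncertain for reads that do not span the whole miRNA.

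On GRCm38 (GENCODE M21), Mir206 (chromosome 1, 20679010 to 20679082, plus strand) and Mir133b (chromosome 1, 20682769 to 20682887, plus strand) lie 3686 bases apart in exons of the same long non-coding RNA gene, Gm28653. Mir1a-1 (chromosome 2, 180389048 to 180389124, plus strand) and Mir133a-2 (chromosome 2, 180398379 to 180398482, plus strand) lie 9254 bases apart and overlap no other annotated gene. miR-1a-3p and miR-133a-3p each have 2 genes, and reads of identical mature copies cannot be assigned to either. Mir499 (chromosome 2, 155622880 to 155622958, plus strand) is in an intron of Myh7b, and Mir208a (chromosome 14, 54949060 to 54949142, minus strand) is in an intron of Myh6, each on the strand of its host.

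Reads counted on miRNAs numbered 165139 to 351758 per library, within 5144833 to 26256012 annotated reads of all kinds, and shares below are of the miRNA reads. Reads carry no molecular identifiers, so intervals and floors cover counting error only. A miRNA without reads could still take up to 0.000853% to 0.00182% of the miRNA reads, the share of 3 counts in the deepest and the shallowest library. Detection was set at 4 counts or more. By that measure miR-133a-3p was detected in 6 of 6 libraries, miR-206-3p and miR-499-5p in 4 each, and miR-1a-3p, miR-133b-3p and miR-208a-3p in 0. Thus the muscle list was represented by 2 of its 4 members and the heart pair by miR-499-5p alone, and which ones were detected changed with the kit.

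**Figure D1:**
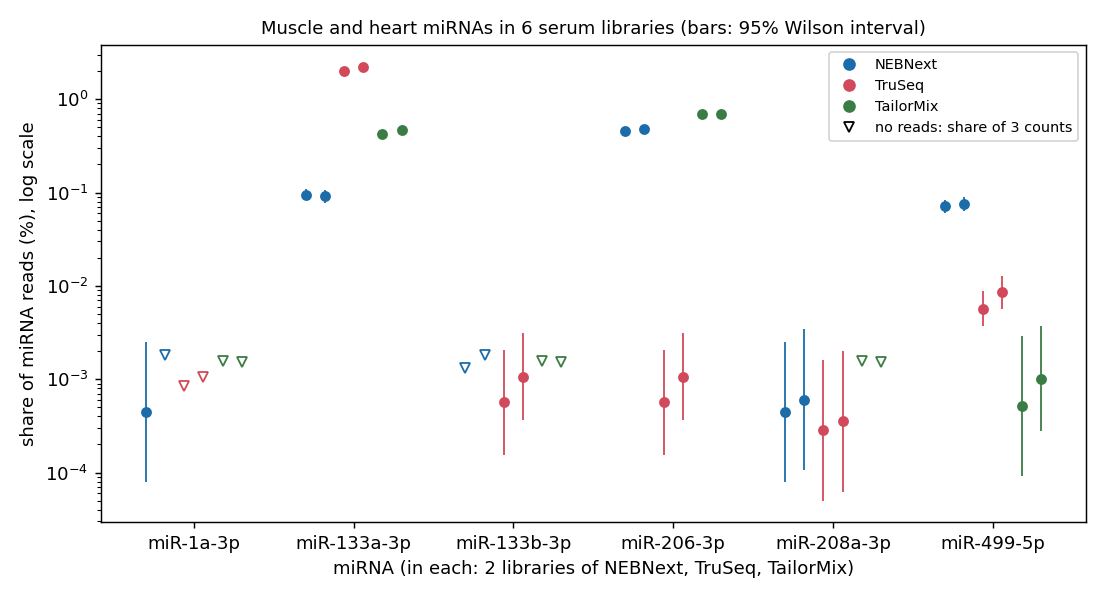
Share of miRNA reads (percent, log scale) of each of the 6 miRNAs in each library, coloured by kit, with 95% Wilson intervals as bars; open triangles stand for libraries without reads and mark the share of 3 counts. miR-133a-3p lies highest in TruSeq (2.00% and 2.19%), miR-206-3p in TailorMix (0.696% and 0.697%) and miR-499-5p in NEBNext (0.0712% and 0.0751%), and the other 3 stay at 3 counts or fewer throughout.

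miR-133a-3p, which is made in skeletal and heart muscle alike, was the most abundant member with TruSeq. It had 7019 and 6188 counts with TruSeq, 819 and 922 with TailorMix and 213 and 150 with NEBNext. These were 2.00% (95% Wilson interval 1.95% to 2.04%) and 2.19% (2.14% to 2.25%) of the miRNA reads with TruSeq, 0.423% and 0.468% with TailorMix, and 0.0947% and 0.0908% with NEBNext. The kits did not overlap, and both libraries of TruSeq lay above both of TailorMix, which lay above both of NEBNext. In the order of abundance miR-133a-3p ranked 13 and 12 with TruSeq, 34 in both TailorMix libraries and 89 in both NEBNext libraries. The mean share was 2.09% ± 0.140 with TruSeq, 0.446% ± 0.0318 with TailorMix and 0.0928% ± 0.00275 with NEBNext (SD, n = 2 each). With the reads of both libraries pooled, the TruSeq share was 22.4 times that of NEBNext (95% exact counting interval 20.2 to 24.9), and 4.67 times that of TailorMix (4.44 to 4.91). The Wilson intervals of the 2 TruSeq libraries did not overlap, and the pooled intervals leave this spread between libraries out.

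miR-206-3p, the skeletal muscle relative of miR-1a, followed another order. Its counts were 1347 and 1373 with TailorMix and 1015 and 784 with NEBNext, but 2 and 3 counts with TruSeq, although the TruSeq libraries held the most miRNA reads. Its share was 0.696% (95% Wilson interval 0.660% to 0.734%) and 0.697% (0.662% to 0.735%) with TailorMix and 0.451% and 0.475% with NEBNext. With TruSeq the shares were 0.000569% (0.000156% to 0.00207%) and 0.00106% (0.000362% to 0.00313%), which is at or under the share of 3 counts. The ranges of the 3 kits did not overlap. miR-206-3p ranked 27 in both TailorMix libraries and 44 and 43 with NEBNext, against 281 of 421 and 228 of 367 miRNAs listed with TruSeq. The mean share was 0.697% ± 0.000768 with TailorMix, 0.463% ± 0.0165 with NEBNext and 0.000816% ± 0.000350 with TruSeq (SD, n = 2 each). In pooled reads, the share with TailorMix was 1.51 times that with NEBNext (95% exact counting interval 1.42 to 1.60) and 883 times that with TruSeq (378 to 2723), and the NEBNext share was 585 times that of TruSeq (250.1 to 1803). For scale, miR-16-5p (MIMAT0000527), an abundant serum miRNA, had 904 and 617 counts with NEBNext, fewer than miR-206-3p, whereas with TruSeq it had 5661 and 2640.3 reads for each read of miR-206-3p. With TailorMix, where miR-206-3p was highest, miR-16-5p still had 7.38 and 7.02 reads for each of its reads. These ratios move with miR-16-5p as well, whose share was 0.402% and 0.374% in NEBNext, 3.22% and 2.81% in TruSeq and 5.14% and 4.89% in TailorMix.

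miR-499-5p, the miRNA of heart and slow muscle, was best represented in NEBNext. Its counts there were 160 and 124, against 20 and 24 for TruSeq and just 1 and 2 for TailorMix. The shares were 0.0712% (95% Wilson interval 0.0610% to 0.0831%) and 0.0751% (0.0630% to 0.0895%) with NEBNext. In the TruSeq libraries they were 0.00569% (0.00368% to 0.00878%) and 0.00851% (0.00572% to 0.0127%), and in the TailorMix libraries 0.000517% and 0.00102%. Again the kits did not overlap, now with NEBNext highest and TailorMix lowest. Its ranks were 99 and 97 in the NEBNext libraries, 135 and 115 in those of TruSeq, and 338 and 295 in those of TailorMix. The mean share (± SD, n = 2 each) fell from 0.0731% ± 0.00278 in NEBNext over 0.00710% ± 0.00200 in TruSeq to 0.000766% ± 0.000353 in TailorMix. In pooled reads the NEBNext share was 10.5 times that of TruSeq (95% exact counting interval 7.62 to 14.8) and 94.8 times that of TailorMix (32.1 to 462). The last ratio rests on 3 counts in the TailorMix libraries together.

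**Figure D2:**
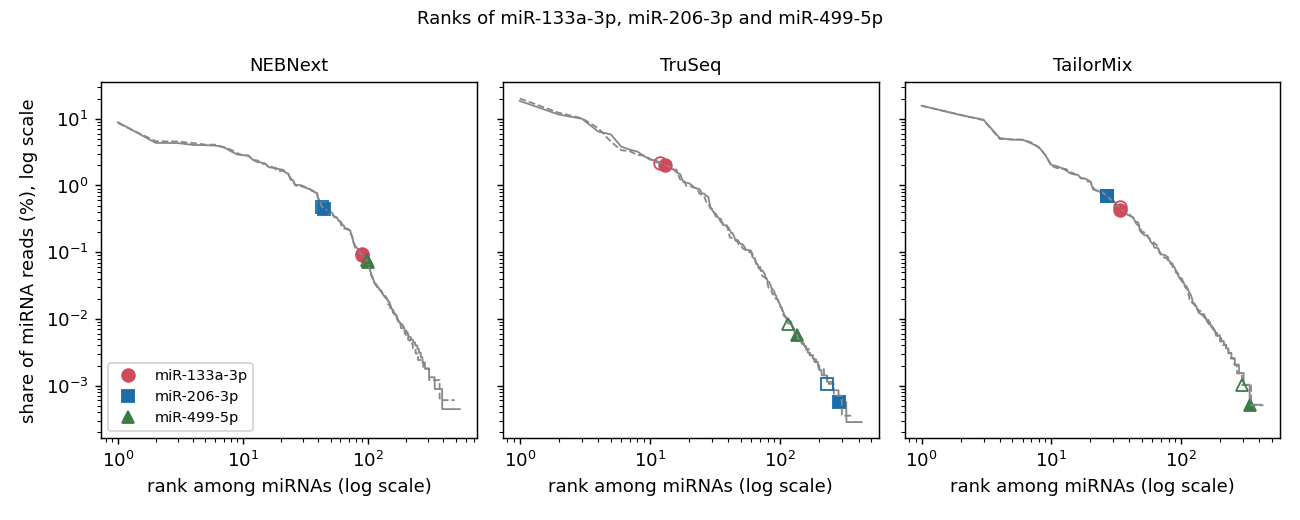
Share of miRNA reads (percent, log scale) against rank among the miRNAs of the library (log scale) for each kit; grey lines are all miRNAs of library 1 (solid) and 2 (dashed), filled symbols are library 1 and open symbols library 2. miR-206-3p moves from rank 27 with TailorMix to ranks 281 and 228 with TruSeq, while miR-133a-3p moves from rank 89 with NEBNext to ranks 13 and 12 with TruSeq.

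The other 3 members were near the limit of counting with every kit. miR-1a-3p, the most abundant miRNA of striated muscle tissue, had 1 read in NEBNext replicate 1 and 0 in the other 5 libraries. miR-133b-3p, the neighbour of miR-206 on chromosome 1, had 2 and 3 reads with TruSeq and 0 in the libraries of the other kits. The heart miRNA miR-208a-3p had 1 read in each of the 2 NEBNext and the 2 TruSeq libraries and 0 with TailorMix. No difference between kits was detectable at this depth for these 3 miRNAs, and none of them had enough counts to enter the test across kits.

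Close relatives and cluster neighbours among the members were counted very unequally within a library where either was above the floor of 3 counts. With TruSeq, the neighbours miR-206-3p and miR-133b-3p had the same low counts, 2 each in replicate 1 and 3 each in replicate 2. miR-133a-3p outnumbered miR-1a-3p by at least 2339.7-fold and 2062.7-fold in the TruSeq libraries, at least 273-fold and 307-fold in the TailorMix libraries and at least 50.0-fold in NEBNext replicate 2, with 3 counts as the floor in each library. In NEBNext replicate 1, where miR-1a-3p had its read, the ratio was 213 (95% exact counting interval 37.8 to 8452). miR-206-3p likewise outnumbered miR-1a-3p, its close relative, by at least 449-fold and 458-fold with TailorMix and by at least 261-fold in NEBNext replicate 2. In TruSeq both were at or under the floor, and no ratio is given. Of the 2 near-identical miR-133 forms, miR-133a-3p exceeded miR-133b-3p by at least 71.0-fold and 50.0-fold with NEBNext and at least 273-fold and 307-fold with TailorMix. With TruSeq it had 3509.5 (971 to 28985) and 2062.7 (705 to 10005) reads for each read of miR-133b-3p. These are ratios of reads, not of molecules, between miRNAs of nearly equal length. Between kits, the log2 ratios of 3 pairs (0.5 added to each count) were put to an exact permutation test, two-sided. The p was 0.0667 for miR-1a-3p over miR-206-3p and for miR-1a-3p over miR-133a-3p. It was 0.133 for miR-133a-3p over miR-133b-3p (adjusted over the 3 pairs 0.10, 0.10 and 0.133). The smallest p that 15 groupings of 6 libraries allow is 0.0667, and these ratios rest on the added count wherever a member had no reads.

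The make-up of the muscle and heart reads was almost reversed between kits. Together the 6 miRNAs took 2.10% ± 0.143 of the miRNA reads with TruSeq, 1.14% ± 0.0329 with TailorMix and 0.630% ± 0.0164 with NEBNext (mean ± SD, n = 2 each). With TruSeq, miR-133a-3p made up 99.6% and 99.5% of these reads. With NEBNext, miR-206-3p had 73.0% and 74.0% of them, miR-133a-3p 15.3% and 14.2%, and miR-499-5p 11.5% and 11.7%. TailorMix lay between for miR-206-3p, with 62.2% and 59.8%, and for miR-133a-3p, with 37.8% and 40.1%. For miR-499-5p it was lowest, with 0.0461% and 0.0871%, against 0.284% and 0.386% with TruSeq. The ratio of miR-206-3p to miR-133a-3p reads, a comparison added after seeing the counts, was 4.77 and 5.23 with NEBNext and 1.64 and 1.49 with TailorMix, whereas with TruSeq miR-133a-3p had 3509.5 and 2062.7 reads for each of miR-206-3p. In NEBNext, miR-206-3p had 6.34 and 6.32 reads for each read of miR-499-5p, and in TruSeq miR-499-5p had 10.0 and 8.0 for each read of miR-206-3p. The summed share was thus nearly all miR-133a-3p with TruSeq and mostly miR-206-3p with the other kits.

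**Figure D3:**
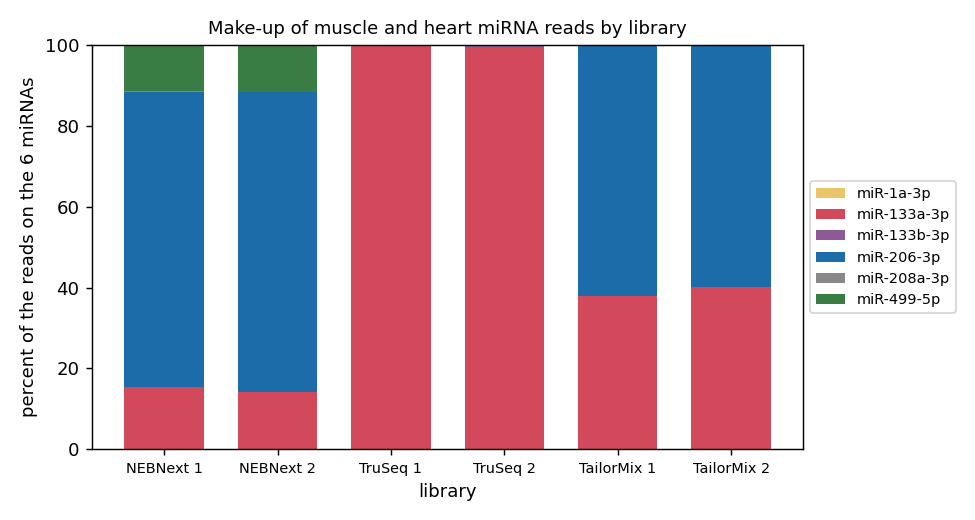
Percent of the reads on the 6 miRNAs that each of them took, stacked from 0 to 100 for each library. miR-133a-3p fills 99.6% and 99.5% of the TruSeq bars, whereas miR-206-3p takes 73.0% and 74.0% of the NEBNext bars and 62.2% and 59.8% of the TailorMix bars.

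For the comparison of kits, edgeR's quasi-likelihood test (TMM) was run on the 360 miRNAs that reached 4 counts in 2 or more libraries, and 3 of the 6 members were among them. The log2 fold change of miR-133a-3p between NEBNext and TruSeq was 5.56, higher in TruSeq (standard error 0.13, adjusted p = 3.13e-28). On that contrast miR-206-3p changed by -8.05 (standard error 0.25, adjusted p = 1.81e-24) and miR-499-5p by -2.31 (standard error 0.25, adjusted p = 3.61e-10). Between NEBNext and TailorMix, miR-133a-3p was higher in TailorMix by 2.91 (standard error 0.12, adjusted p = 5.14e-21) and miR-206-3p by 1.24 (standard error 0.12, adjusted p = 1.49e-11), and miR-499-5p changed by -5.83 (standard error 0.43, adjusted p = 4.09e-14). Of TailorMix relative to TruSeq the values were -2.65 for miR-133a-3p (standard error 0.11, adjusted p = 2.10e-21), 9.30 for miR-206-3p (standard error 0.24, adjusted p = 3.56e-27) and -3.51 for miR-499-5p (standard error 0.62, adjusted p = 7.83e-06). These standard errors come from the F value and were smaller than those of DESeq2, an alternative test, where a kit had few counts. DESeq2 gave 0.67 for miR-206-3p in both contrasts with TruSeq. For miR-499-5p in TailorMix it gave 0.94 relative to NEBNext and 0.96 relative to TruSeq. The direction seen in the means was the direction of every pair of libraries. Values that rest on few counts moved with a library left out. For miR-499-5p, TailorMix had 1 and 2 counts. Relative to NEBNext its log2 fold change was -5.18 without TailorMix replicate 1 and -6.25 without replicate 2. Relative to TruSeq it was -2.97 and -4.14 in the same order. For miR-206-3p, TruSeq had 2 and 3 counts. From NEBNext to TruSeq its log2 fold change was -7.74 without TruSeq replicate 1 and -8.59 without replicate 2. From TruSeq to TailorMix it was 8.80 and 9.61 in the same order.

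All 3 tested members passed the threshold of 0.05 in each contrast, but most miRNAs did so too: 68.6% of those tested between TruSeq and NEBNext, 77.5% between TailorMix and NEBNext and 70.6% between TailorMix and TruSeq. By direction, 26.1% of tested miRNAs were higher in TruSeq than in NEBNext, as miR-133a-3p was, and 42.5% were lower, as miR-206-3p and miR-499-5p were. In TailorMix 39.2% were higher than in NEBNext and 38.3% lower, and 41.7% were higher than in TruSeq and 28.9% lower. Shares that did not overlap between kits were likewise common, at 83.6%, 88.9% and 83.9% of miRNAs in the 3 comparisons in the same order. Passing the test therefore did not set the members apart. The median absolute log2 fold change of the 3 members was 5.56, 2.91 and 3.51 in the 3 contrasts, beside 2.21, 2.18 and 2.37 over all miRNAs tested, with the 3 that could be tested having been kept by their higher counts.

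**Figure D4:**
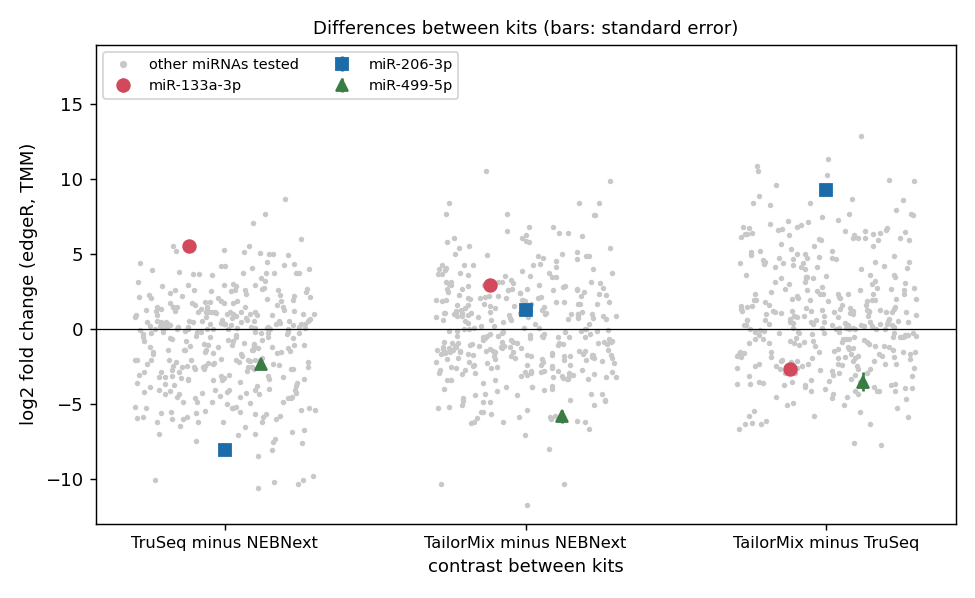
Log2 fold change (edgeR, TMM) of miR-133a-3p, miR-206-3p and miR-499-5p in the 3 contrasts between kits, with the standard error as bars, over the values of the other miRNAs tested in grey, spread sideways at random. The bars come from the F value and are narrower than DESeq2 standard errors for miR-206-3p against TruSeq and for miR-499-5p in TailorMix. miR-206-3p lies near the lower edge at -8.05 from NEBNext to TruSeq and near the upper edge at 9.30 from TruSeq to TailorMix, and miR-133a-3p has the opposite sign in both.

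The scaling between libraries changed the size of these differences but not their sign. Taking the total of miRNA reads as library size in place of TMM shifted the log2 fold changes by a median of -1.05 from NEBNext to TruSeq, -0.64 from NEBNext to TailorMix and 0.41 from TruSeq to TailorMix. On that scale miR-133a-3p was 22.5-fold higher in TruSeq than in NEBNext, compared with 47.1-fold under TMM. For miR-206-3p the TailorMix value was 1.51-fold that of NEBNext in place of 2.37-fold, and for miR-499-5p the NEBNext value was 10.4-fold that of TruSeq in place of 4.97-fold. The NEBNext value of miR-206-3p was 549.5-fold that of TruSeq in place of 265.9-fold, and that of miR-499-5p 88.9-fold that of TailorMix in place of 56.8-fold. miR-133a-3p was 4.79-fold higher in TailorMix than in NEBNext in place of 7.53-fold. The split of calls over all miRNAs moved as well, from 94 higher and 153 lower in TruSeq than in NEBNext to 61 and 191, and from 141 higher and 138 lower in TailorMix than in NEBNext to 108 and 172. Per 1000000 annotated reads of all kinds, the order of the kits was the same for each of the 3 members, and miR-133a-3p had 631 ± 37.6 with TruSeq, 167 ± 10.4 with TailorMix and 8.47 ± 0.509 with NEBNext (SD, n = 2 each). On the same scale miR-206-3p had 260.4 ± 1.98 with TailorMix, 42.4 ± 5.31 with NEBNext and 0.245 ± 0.104 with TruSeq. The values of miR-499-5p were 6.70 ± 0.854 in NEBNext libraries, 2.13 ± 0.585 in TruSeq libraries and 0.286 ± 0.129 in TailorMix libraries.

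The distance between the highest and the lowest kit mean, on a scale of log2(CPM + 1) with CPM the counts per 1000000 miRNA reads, was 9.63 for miR-206-3p, 6.46 for miR-499-5p and 4.49 for miR-133a-3p. Over all 360 miRNAs the median distance was 4.19, and the 10th and 90th percentiles were 1.45 and 7.07. Of these miRNAs 97.5% had a smaller distance than miR-206-3p, 84.4% a smaller one than miR-499-5p and 54.4% a smaller one than miR-133a-3p. On this scale, which has no TMM factor, miR-133a-3p was thus an ordinary case, and miR-206-3p was among the 9 miRNAs with the largest distance. Under TMM, the absolute change of miR-133a-3p between TruSeq and NEBNext was larger than that of 88.9% of the miRNAs tested. Its standing therefore depends on the scaling and the measure. In all, 30 miRNAs had at most 3 counts in both TruSeq libraries and at least 4 in each of the 4 others, and only 2 of these, miR-206-3p included, had at least 100 in each of the 4 others. At least 4-fold higher shares in both TruSeq libraries than in each other library were found for 11 of the 360 miRNAs, including miR-133a-3p. The same for NEBNext was found for 65, including miR-499-5p. Both counts use shares without TMM scaling and were not repeated with it. miR-133a-3p was near the 4-fold cutoff, with 2.00% in TruSeq replicate 1 and 0.468% in TailorMix replicate 2. These patterns were not among the planned results and follow the kits in which the members were high or low. That members meet them is therefore a description only. The TMM factors were 1.47 and 1.51 in NEBNext and 0.685 and 0.735 in TruSeq.

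The miRNAs most like each member were sought by the mean absolute difference of centred log2 values over the 6 libraries, as a description only. The nearest to miR-206-3p was MIMAT0000666, at 0.74 beside a median of 3.64 over 357 miRNAs, with 772 and 614 counts in NEBNext, 7 in both TruSeq libraries and 1197 and 1255 in TailorMix. The nearest to miR-133a-3p was MIMAT0000141, at 0.31 beside a median of 2.64, with 18 counts in both NEBNext libraries, 537 and 436 with TruSeq and 92 and 115 with TailorMix. For miR-499-5p it was MIMAT0000161, at 0.31 beside a median of 2.46, with 1268 and 1021, then 145 and 121, then 12 and 27 counts in the same order of kits. The files list these miRNAs by identifier only, and no names were paired with them.

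Replicates of a kit were closer to each other than to any library of another kit for each of the 3 members. This share was not counted over all miRNAs. The related pattern, shares that did not overlap between 2 kits, held for 83.6% to 88.9% of the miRNAs tested. The closeness of replicates is therefore not read as a trait of the members. As the log2 ratio of shares with 0.5 added to each count, replicate 1 over replicate 2 of miR-133a-3p was 0.059 for NEBNext, -0.14 for TruSeq and -0.15 for TailorMix. The same log2 ratio of miR-206-3p was -0.073 for NEBNext and -0.0022 for TailorMix, and -0.80 for TruSeq, where it rests on 2 and 3 counts. For miR-499-5p it was -0.079 for NEBNext, -0.58 for TruSeq on 20 and 24 counts and -0.71 for TailorMix on 1 and 2 counts. The widest gaps, of -0.80, -0.71 and -0.58, were thus those on 24 counts or fewer. The other gaps did not narrow with the counts. For miR-133a-3p the gap was wider in TruSeq, on 7019 and 6188 counts, than in NEBNext, on 213 and 150.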

How the data were processed

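Small RNA of mouse serum was sequenced in 6 libraries. Per the paper's methods and the labels, the authors removed adaptors with Cutadapt 1.8.1 and dropped reads that lacked one or were shorter than 15 bp. They filtered on quality with the FASTX-Toolkit 0.0.14 (80% of bases at a score of 20 or more), aligned with Bowtie 1.1.2 allowing no mismatch, and assigned reads to miRNAs by genome position (miRBase 20, GRCm38, Ensembl 84). The deposited values are raw read counts per miRNA and per sequence of other small RNAs, not normalized and not pooled. An unlisted miRNA was taken as 0. How reads matching several genes were counted is not given in the sources used here.

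Kits were taken from the sample titles. Shares have 95% Wilson intervals. Counts were tested with edgeR 4.0.16 (R 4.3.3; glmQLFit, glmQLFTest, TMM, all 6 libraries, Benjamini-Hochberg over 360 miRNAs), and the standard error is the log2 fold change over the square root of the F value. DESeq2 1.42.0, other scalings and filters, the replicate block and single libraries left out were alternatives. Scripts (Python 3.11.15, scipy 1.17.1) were tested on simulated data.

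All 6 members are named, and for each tested member the 2 nearest miRNAs were sought, of which 1 identifier is printed. Members, lists and tests were chosen with earlier results of these data known. Lists of the members' other arms and of red cell, myeloid, liver and endothelial miRNAs were not analysed here, since no table pairs their names with identifiers. Replicates differed by more than counting noise, chi-square over degrees of freedom being 15.0 for TruSeq, 2.16 for NEBNext and 1.59 for TailorMix. Counting intervals that involve TruSeq leave this spread out, and the fit shared its spread between kits. The exact permutation test of the summed share is not given because the members were chosen as a list.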

Additional observations from a re-analysis of the deposited data

How the results depend on the processing

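For miR-133a-3p, miR-206-3p and miR-499-5p, the sign and the call in all 3 contrasts were the same in each of 13 alternatives (no scaling factor, RLE, DESeq2, 2 other filters, the replicate block, fits of 4 libraries, and each of 6 libraries left out), and 3 members were called in each. With a library left out its kit has 1 library, which the fit assumes to vary as the replicates of the other kits do, so those calls say little about the spread within that kit. Counts of miRNAs called stayed within 1.5 times. Without a filter the other 3 members were not called either, with adjusted p of 0.123 to 1. Of all annotated reads the summed share was 0.00576% (NEBNext), 0.0633% (TruSeq) and 0.0427% (TailorMix), and without the most abundant miRNA in the denominator 0.690%, 2.61% and 1.36%. With 4 in place of 0.5 added to the counts, log2 ratios in the order NEBNext, TruSeq, TailorMix were -7.65, -0.70 and -8.41 for miR-1a-3p over miR-206-3p, 5.51, 9.99 and 7.77 for miR-133a-3p over miR-133b-3p, and -5.35, -10.69 and -7.77 for miR-1a-3p over miR-133a-3p, so their size is set by the added count. With 0 added, of these only miR-133a-3p over miR-133b-3p in TruSeq had a value.

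With the replicate number as a block, 232, 250 and 235 miRNAs were called, in place of 247, 279 and 254. The numbers gave no sign of pairing: the difference between replicates 1 and 2 correlated between kits by 0.00083, -0.059 and 0.13 over 102 miRNAs. Low counts limit what can be said of miR-1a-3p, miR-133b-3p and miR-208a-3p, with at most 3 in any library. The same holds for the low ends of miR-206-3p (TruSeq) and miR-499-5p (TailorMix). Why these counts were low was not tested.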
